A study of Homo sapiens with 24 samples.

Results

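The aldolase and enolase isoforms of this series were ALDOA, ALDOC, ENO1, ENO2 and ENO3, taken by gene symbol from a table of 22446 genes; all 5 were present and all 5 passed the filter on low values that left 11933 tested genes. The cells were A2780, an established line from a human ovarian cancer of epithelial origin, and their total RNA, depleted of ribosomal RNA, was sequenced after culture in a chamber at 1% oxygen (hypoxia) or in normoxia, both at 5% CO2 in serum-containing RPMI medium. Hypoxia and normoxia were each sampled at 6 hr, 48 hr and 6 days, with 2 libraries in each of the 6 groups and 12 in all. Whether both libraries of a group stem from separate cultures is not stated in the labels, so p-values cover only library-to-library spread, which may be technical. All libraries are of 1 cell line, and no other line was compared.

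Aldolase splits fructose bisphosphate into triose phosphates in the middle of glycolysis, and enolase makes phosphoenolpyruvate shortly before its end. Each reaction is served by isoforms encoded by separate genes: ALDOA and ENO1 are the broadly expressed forms, ALDOC and ENO2 (neuron-specific enolase) are best known from brain, and ENO3 is the muscle form. Many glycolytic genes are known targets of the hypoxia-inducible factors, which accumulate when oxygen is low and bind DNA at a short core sequence, ACGTG or GCGTG.

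The values are RPKM, the reads on a gene scaled to transcript length in kilobases and to a library of 1 M reads (M is 1e6). The transcript lengths used are not given, so comparisons of level between genes depend on lengths that could not be checked. ALDOA and ENO1 were the main isoforms in every library, at 129 RPKM or more for ALDOA and 159.7 RPKM or more for ENO1. ALDOC ran from 1.02 to 41.8 RPKM, ENO2 from 8.85 to 102 RPKM and ENO3 from 2.95 to 11.7 RPKM. Under 1% oxygen all 5 were higher than in normoxia at 48 hr and at 6 days, and the minor isoforms ALDOC and ENO2 had the highest fold changes of the 5 at every time. In the 6-day cultures the major and minor isoforms also moved in opposite directions with time in normoxia.

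**Figure D1:**
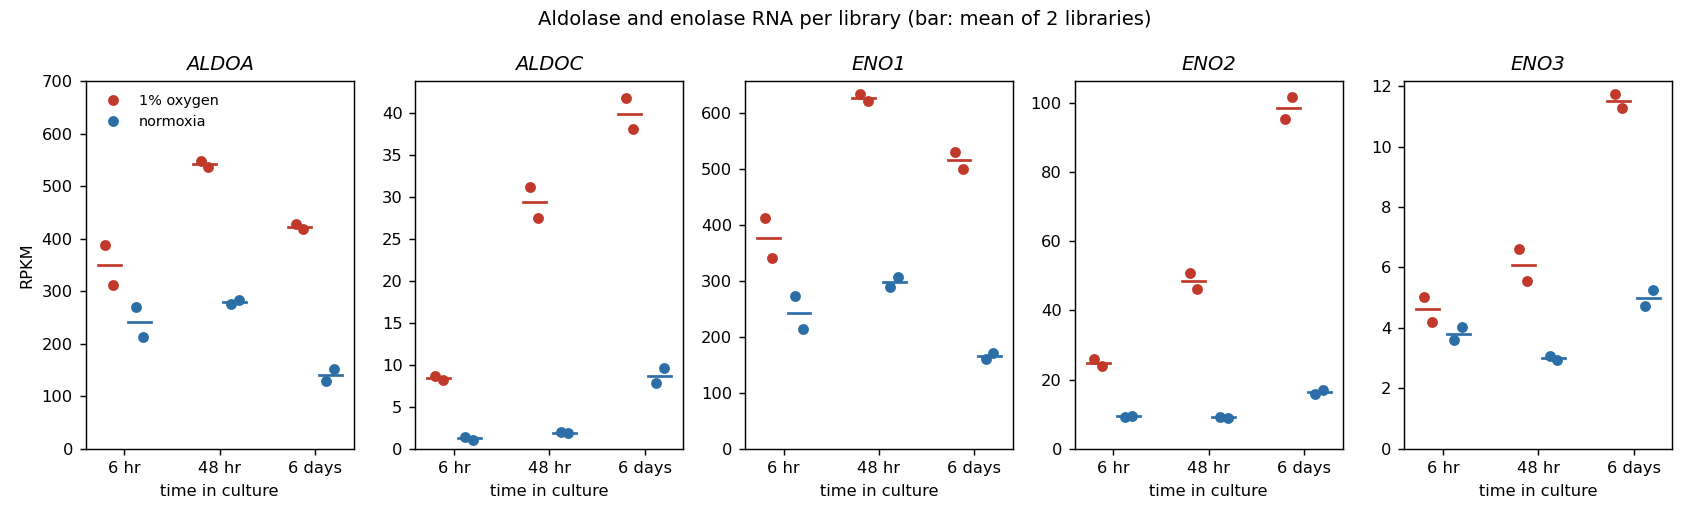
RPKM of each isoform (vertical axis, its own scale in each panel, from 0) in every library at 6 hr, 48 hr and 6 days, with 1% oxygen left of normoxia. Points are single libraries and bars are means of 2 libraries. ALDOA and ENO1 peak at 48 hr in 1% oxygen and are lowest in normoxia at 6 days, whereas ALDOC, ENO2 and ENO3 are highest at 6 days in 1% oxygen.

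To show where the core sequence lies near the start of isoforms with large and small fold changes, the 250 bases before the annotated start of ALDOC, ENO2, ALDOA and ENO1 are given from RefSeq (GRCh38.p14), 5′ to 3′ on the strand of the gene. They lie at chr17:28576896-28577145 (minus strand), chr12:6914330-6914579 (plus strand), chr16:30065510-30065759 (plus strand) and chr1:8878687-8878936 (minus strand). Capitals mark ACGTG or GCGTG on either strand, so CACGT and CACGC are the same letters read from the other strand, and CACGTG holds ACGTG on both.
ALDOC: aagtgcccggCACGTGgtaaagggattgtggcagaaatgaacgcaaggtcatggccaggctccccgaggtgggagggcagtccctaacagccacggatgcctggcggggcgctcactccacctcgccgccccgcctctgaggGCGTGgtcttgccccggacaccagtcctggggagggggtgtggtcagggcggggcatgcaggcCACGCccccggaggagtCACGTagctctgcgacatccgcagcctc
ENO2: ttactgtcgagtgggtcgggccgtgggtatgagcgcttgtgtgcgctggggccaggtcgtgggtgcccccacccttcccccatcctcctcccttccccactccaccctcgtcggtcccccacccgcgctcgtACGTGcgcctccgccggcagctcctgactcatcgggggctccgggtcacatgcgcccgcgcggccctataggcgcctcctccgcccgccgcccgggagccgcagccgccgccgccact
ALDOA: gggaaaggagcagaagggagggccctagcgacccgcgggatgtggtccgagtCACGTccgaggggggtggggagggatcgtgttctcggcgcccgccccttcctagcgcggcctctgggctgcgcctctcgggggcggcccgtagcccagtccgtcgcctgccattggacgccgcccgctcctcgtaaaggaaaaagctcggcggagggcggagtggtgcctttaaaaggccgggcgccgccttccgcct
ENO1: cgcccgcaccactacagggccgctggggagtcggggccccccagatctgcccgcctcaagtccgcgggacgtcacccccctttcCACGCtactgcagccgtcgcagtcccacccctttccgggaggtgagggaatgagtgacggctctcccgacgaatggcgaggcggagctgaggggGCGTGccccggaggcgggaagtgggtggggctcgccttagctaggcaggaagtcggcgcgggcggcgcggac
The ALDOC window held 3 matches to ACGTG and 2 to GCGTG. Of these, CACGTG lay 240 to 235 bases before the start and CACGT lay 28 to 24 bases before it. ENO2 had 1 ACGTG, 118 to 114 bases before the start. The ALDOA window shown is the one farthest downstream of 3 annotated starts and had 1 CACGT, 198 to 194 bases before the start. The other ALDOA windows held 1 and 2 matches to ACGTG, the 2 being both strands of a single CACGTG. ENO1 had no ACGTG and 2 matches to GCGTG. Whether the matches relate to the fold changes below was not tested. ENO3 had 2 matches to GCGTG in one of its 2 windows and none in the other. Over all 35116 windows of the same length, 43.2% held a match to ACGTG or GCGTG, 19.4% held at least 2, and 6.34% held CACGTG. A match describes letters only and does not show binding.

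ALDOC had the highest fold change of the 5 at 6 hr and 48 hr. At 6 hr it measured 8.67 and 8.18 RPKM in 1% oxygen, against 1.44 and 1.02 RPKM in normoxia. At 48 hr it measured 31.2 and 27.5 RPKM in 1% oxygen, against 2.02 and 1.84 RPKM in normoxia. At 6 days it measured 41.8 and 38.1 RPKM in 1% oxygen, against 7.80 and 9.58 RPKM in normoxia. The libraries of the oxygen groups did not overlap at any time, and the normoxic libraries at 6 days stood level with the hypoxic ones at 6 hr. With 2 libraries a group, lack of overlap is weak evidence, here and for the other isoforms below. The share of all tested genes whose oxygen groups did not overlap was not counted. The fitted log2 fold changes were 2.38 (SE 0.13) at 6 hr, 3.62 (SE 0.13) at 48 hr and 2.14 (SE 0.13) at 6 days, with adjusted p of 1.60e-06, 3.98e-08 and 6.47e-07 (limma on log2(RPKM + 0.5), Benjamini-Hochberg over 11933 genes). Ranked from the highest log2 fold change among all tested genes, ALDOC had rank 5 at 6 hr, rank 3 at 48 hr and rank 82 at 6 days. The scale understates the fold of low genes: from the group means of RPKM the ratio of 1% oxygen to normoxia was 6.85 at 6 hr, 15.2 at 48 hr and 4.60 at 6 days, against fitted folds of 5.20, 12.3 and 4.42.

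ENO2 rose with each step of time in 1% oxygen. At 6 hr it measured 25.9 and 23.9 RPKM in 1% oxygen, against 9.30 and 9.53 RPKM in normoxia. The 48 hr libraries had 50.8 and 46.0 RPKM in 1% oxygen, against 9.30 and 8.85 RPKM in normoxia. The 6-day libraries had 95.4 and 102 RPKM in 1% oxygen, against 15.8 and 17.0 RPKM in normoxia. Every hypoxic library was above every normoxic one, those of other times included. The log2 fold changes were 1.36 (SE 0.09), 2.35 (SE 0.09) and 2.55 (SE 0.09) at 6 hr, 48 hr and 6 days, which are 2.56-, 5.10- and 5.86-fold, with limma adjusted p of 6.24e-06, 3.98e-08 and 2.32e-08. By log2 fold change ENO2 had rank 47 at 6 hr, rank 19 at 48 hr and rank 33 at 6 days.

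ALDOA, the main aldolase, had far larger levels and smaller fold changes. At 6 hr it measured 388 and 312 RPKM in 1% oxygen, against 269.8 and 213 RPKM in normoxia. The 48 hr libraries had 547 and 535 RPKM in 1% oxygen, against 275 and 284 RPKM in normoxia. The 6-day libraries had 427 and 419 RPKM in 1% oxygen, against 129 and 152 RPKM in normoxia. The oxygen groups did not overlap at any time, but the libraries of a group lay farther apart at 6 hr than at 48 hr. The log2 fold change of 0.54 (SE 0.15) at 6 hr did not pass the threshold (limma adjusted p = 0.0950, 95% interval 0.20 to 0.88). At 48 hr it was 0.95 (SE 0.15, adjusted p = 0.00208) and at 6 days 1.59 (SE 0.15, adjusted p = 2.07e-05), or 3.01-fold. Over 20 alternatives the 6 hr value ran from 0.37 to 0.70, the highest without library 1, of normoxia at 6 hr.

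ENO1, the main enolase, had levels close to those of ALDOA. At 6 hr it measured 411 and 341 RPKM in 1% oxygen, against 273 and 213 RPKM in normoxia. Values at 48 hr were 633 and 619.8 RPKM in 1% oxygen, against 289 and 307 RPKM in normoxia. Values at 6 days were 530.3 and 500.1 RPKM in 1% oxygen, against 159.7 and 170.2 RPKM in normoxia. The oxygen groups did not overlap at any time, and the highest levels were again at 48 hr in 1% oxygen. The log2 fold changes were 0.63 (SE 0.15), 1.07 (SE 0.15) and 1.64 (SE 0.15) at 6 hr, 48 hr and 6 days, with limma adjusted p of 0.0423, 0.000746 and 1.29e-05. The 6 hr call was lost in 12 of 20 alternatives, with adjusted p from 0.0130 to 0.320 over all of them. Without library 3 (1% oxygen at 6 hr) the log2 fold change was 0.50 with adjusted p = 0.299, and without library 2 (normoxia at 6 hr) it was 0.46 with adjusted p = 0.132. Leaving out any 1 library of another time kept the value at 0.63 and gave adjusted p from 0.0589 to 0.0772.

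ENO3, the muscle enolase, was the least abundant enolase in every library. At 6 hr it measured 5.02 and 4.21 RPKM in 1% oxygen, against 3.6 and 4.03 RPKM in normoxia. At 48 hr it measured 6.61 and 5.54 RPKM in 1% oxygen, against 3.08 and 2.95 RPKM in normoxia. At 6 days it measured 11.7 and 11.3 RPKM in 1% oxygen, against 4.71 and 5.25 RPKM in normoxia. The oxygen groups did not overlap, but at 6 hr they lay close together. The log2 fold change was 0.24 (SE 0.11) at 6 hr, with a 95% interval from -0.0032 to 0.49 and limma adjusted p = 0.304. It was 0.90 (SE 0.11, adjusted p = 0.000337) at 48 hr and 1.13 (SE 0.11, adjusted p = 2.33e-05) at 6 days, or 2.19-fold.

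**Figure D2:**
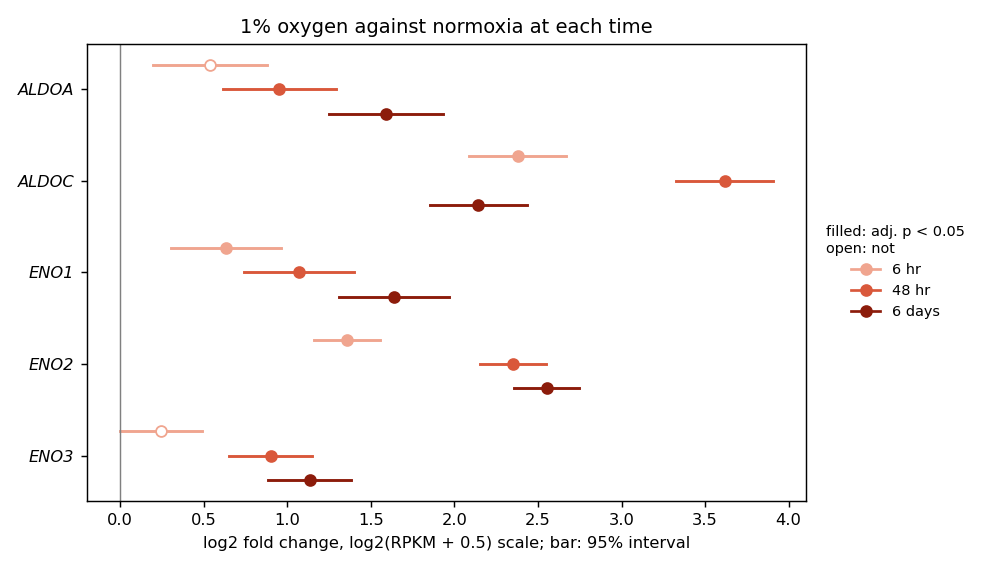
Log2 fold change of each isoform, 1% oxygen against normoxia, at 6 hr, 48 hr and 6 days (horizontal axis, log2(RPKM + 0.5) scale). Points are limma estimates from 2 libraries a group, bars are 95% intervals, and open points did not pass adjusted p of 0.05. ALDOC stands highest at 48 hr (3.62) and is lower again at 6 days (2.14), while the other 4 have their highest estimate at 6 days.

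Counted over the 5 isoforms, 3 were called higher in 1% oxygen at 6 hr, where 3.39% of all tested genes were called higher and 3.59% were called in either direction. All 5 were called higher at 48 hr, where 9.24% of all tested genes were called higher and 12.1% in either direction, and all 5 at 6 days, where 23.9% were called higher and 42.2% in either direction. None was called lower by limma, where 0.201, 2.89 and 18.3% of all tested genes were at the 3 times. None was lower at an unadjusted limma p under 0.05 either. Of all 11933 tested genes, 2008, 3194 and 6014 were under that unadjusted level in either direction. The median log2 fold change of the 5 was 0.63, 1.07 and 1.64 at the 3 times, beside 0.04, 0.01 and 0.04 over all tested genes. Of the genes called at 6 hr, 48 hr and 6 days, 94.4, 76.2 and 56.6% were called higher, and after quantile normalization 76.1, 57.9 and 45.3% were; the directions of the 5 isoforms were the same under that scaling and under trimmed-mean centring.

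The effect of oxygen differed between times for ALDOC and ENO2. Between 6 hr and 48 hr it grew for ALDOC by 1.24 on the log2 scale (SE 0.19, limma adjusted p = 0.0152) and for ENO2 by 1.00 (SE 0.13, adjusted p = 0.00633), when 0.511% of all tested genes were called higher in this contrast. For ALDOA, ENO1 and ENO3 the differences of 0.42, 0.44 and 0.66 did not pass, with limma adjusted p of 0.534, 0.497 and 0.132. Between 48 hr and 6 days the effect on ALDOC shrank, with a difference of -1.47 (SE 0.19, adjusted p = 0.00196), where 5.31% of all tested genes were called lower. The differences for ALDOA (0.64), ENO1 (0.57), ENO2 (0.20) and ENO3 (0.23) did not pass, with limma adjusted p of 0.0846, 0.106, 0.328 and 0.362. The ALDOC call between 6 hr and 48 hr was lost without any of libraries 3 and 4 (1% oxygen at 6 hr), 5 and 6 (normoxia at 48 hr) or 7 (1% oxygen at 48 hr), with differences of 1.15 to 1.29 and adjusted p up to 0.104, and with no filter on low values (1.24, adjusted p = 0.0906). The ENO2 call was lost without library 7 (0.92, adjusted p = 0.0560). Libraries 1 and 2 (normoxia at 6 hr) are not part of the late contrast. Leaving out either kept the late differences at 0.64 for ALDOA and 0.57 for ENO1. The late ALDOA difference passed with trimmed-mean centring (0.63, limma adjusted p = 0.0406). After quantile normalization these differences were smaller, at 0.35 for ALDOA (limma adjusted p = 0.256) and 0.14 for ENO1 (adjusted p = 0.636).

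Within 1% oxygen, levels were also compared between successive times. At 48 hr against 6 hr, 4 of the 5 were higher, where 4.94% of all tested genes were called higher: ALDOC by 1.74 (SE 0.13, limma adjusted p = 6.08e-05), ENO2 by 0.95 (SE 0.09, adjusted p = 0.000217), ENO1 by 0.74 (SE 0.15, adjusted p = 0.0179) and ALDOA by 0.64 (SE 0.15, adjusted p = 0.0371). ENO3 differed by 0.36 (adjusted p = 0.0837). Of all called genes in this contrast 84.5% were higher, and 64.7% after quantile normalization. The ALDOA call was lost in 11 of 19 alternatives, among them leaving out library 4 (0.48, adjusted p = 0.305), library 7 (0.62, adjusted p = 0.225) or library 8 (0.65, adjusted p = 0.149), and leaving out any of libraries 5, 6, 9, 10, 11 and 12, where it stayed at 0.64 with adjusted p up to 0.0612. The ENO1 call was lost without library 4 (0.61, adjusted p = 0.185), library 7 (0.73, adjusted p = 0.141) or library 8 (0.76, adjusted p = 0.0957).

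At 6 days against 48 hr in 1% oxygen, ENO2 (1.02, SE 0.09, limma adjusted p = 3.74e-06), ENO3 (0.87, SE 0.11, adjusted p = 5.16e-05) and ALDOC (0.44, SE 0.13, adjusted p = 0.0131) were higher, where 30.4% of all tested genes were called higher and 62.8% in either direction. ALDOA (-0.36, adjusted p = 0.0645) and ENO1 (-0.28, adjusted p = 0.123) did not pass. The ALDOC call was lost without library 8 (0.35) or library 11 (0.37). Leaving out library 1 or library 2, which are not part of this contrast, kept the ALDOA difference at -0.36. Both main isoforms were called lower after quantile normalization, ALDOA at -0.52 (limma adjusted p = 0.00964) and ENO1 at -0.53 (adjusted p = 0.00570). ALDOA was also called lower with trimmed-mean centring (-0.31, adjusted p = 0.0493) and with no intensity trend (-0.36, adjusted p = 0.0416).

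Normoxic cultures also changed. At 48 hr against 6 hr none of the 5 was called, where 0.0922% of all tested genes were (11 genes by limma, with 1957 at an unadjusted p under 0.05). At that unadjusted level ALDOC was higher and ENO3 lower. The closest was ALDOC, at 0.50 (SE 0.13, limma adjusted p = 0.149). Over 19 alternatives the ALDOC difference ran from 0.33 to 0.68, the highest without library 1. At 6 days against 48 hr all 5 were called, where 59.4% of all tested genes were, 27% higher and 32.4% lower. The main isoforms were lower: ALDOA fell by 0.99 on the log2 scale (SE 0.15, limma adjusted p = 0.000235) and ENO1 by 0.85 (SE 0.15, adjusted p = 0.000542). The minor isoforms were higher: ALDOC by 1.91 (SE 0.13, adjusted p = 9.23e-07), or 3.76-fold, ENO2 by 0.82 (SE 0.09, adjusted p = 1.90e-05) and ENO3 by 0.64 (SE 0.11, adjusted p = 0.000523). The 6-day effect of oxygen uses these normoxic libraries as its base, and so does this contrast, so the 2 sets of values are not independent. Time in culture, cell density and medium at 6 days cannot be told apart here.

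**Figure D3:**
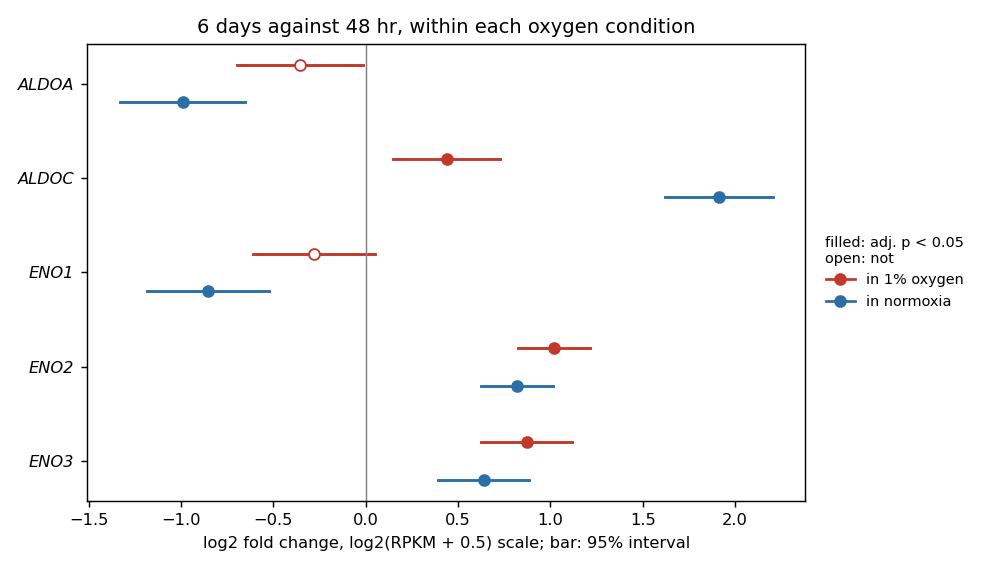
Log2 fold change of each isoform at 6 days against 48 hr (horizontal axis, log2(RPKM + 0.5) scale), in 1% oxygen and in normoxia. Points are limma estimates from 2 libraries a group, bars are 95% intervals, and open points did not pass adjusted p of 0.05. ALDOC is higher by 0.44 in 1% oxygen and by 1.91 in normoxia, and ALDOA and ENO1 are below 0 in both.

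Ordered by mean level, ALDOA and ENO1 shared one order of the groups: 1% oxygen at 48 hr, 6 days and 6 hr, then normoxia at 48 hr, 6 hr and 6 days. The ALDOA means in normoxia at 48 hr (279 ± 6.6 RPKM, SD, n = 2) and 6 hr (242 ± 39.9 RPKM, SD, n = 2) lay within their spread. ALDOC, ENO2 and ENO3 were all highest in 1% oxygen at 6 days and next in 1% oxygen at 48 hr. For ALDOC, 1% oxygen at 6 hr (8.43 ± 0.34 RPKM, SD, n = 2) and normoxia at 6 days (8.69 ± 1.26 RPKM, SD, n = 2) overlapped. For ENO2, normoxia at 48 hr (9.08 ± 0.32 RPKM, SD, n = 2) and at 6 hr (9.41 ± 0.16 RPKM, SD, n = 2) overlapped. For ENO3, 1% oxygen at 48 hr (6.08 ± 0.75 RPKM), normoxia at 6 days (4.98 ± 0.38 RPKM), 1% oxygen at 6 hr (4.61 ± 0.58 RPKM) and normoxia at 6 hr (3.81 ± 0.30 RPKM; SD, n = 2 each) each lay within the spread of the next.

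The make-up of each family differed between the oxygen groups. The RPKM ratio of ALDOA to ALDOC was 44.7 and 38.2 in 1% oxygen at 6 hr, against 188 and 209 in normoxia. At 48 hr it was 17.5 and 19.5 in 1% oxygen, against 136 and 154 in normoxia. At 6 days it was 10.2 and 10.99 in 1% oxygen, against 16.6 and 15.9 in normoxia. ALDOC thus made up 2.37, 5.14 and 8.62% of summed aldolase RPKM in 1% oxygen at the 3 times, against 0.503, 0.687 and 5.81% in normoxia (means of 2 libraries). The log2 ratio of ALDOC to ALDOA was higher in 1% oxygen by 1.84, 2.66 and 0.55 at 6 hr, 48 hr and 6 days, and by 1.69 on average. The exact permutation test, two-sided with oxygen labels exchanged within each time (smallest possible p 0.00926), gave p = 0.00926 and an adjusted p = 0.0139 over the 3 isoform ratios tested, with the ratio higher in 6 of 6 hypoxic libraries than in the normoxic libraries of its time.

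For the enolases the RPKM ratio of ENO1 to ENO2 was 15.9 and 14.2 in 1% oxygen at 6 hr, against 29.3 and 22.4 in normoxia. At 48 hr the ratio was 12.4 and 13.5 in 1% oxygen, against 31.1 and 34.7 in normoxia. At 6 days it was 5.56 and 4.92 in 1% oxygen, against 10.1 and 10.0 in normoxia. ENO2 thus made up 6.17, 7.11 and 15.8% of summed enolase RPKM in 1% oxygen at the 3 times, against 3.73, 2.93 and 8.80% in normoxia. The log2 ratio of ENO2 to ENO1 was higher in 1% oxygen by 0.72, 1.28 and 0.91, by 0.97 on average (exact permutation p = 0.00926, adjusted p = 0.0139), in 6 of 6 hypoxic libraries.

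ENO3 went the other way relative to ENO1. Its log2 ratio to ENO1 was lower in 1% oxygen, with differences of -0.39, -0.17 and -0.51 at 6 hr, 48 hr and 6 days and a mean of -0.36 (exact permutation p = 0.0185, adjusted p = 0.0185). At 48 hr the libraries of both oxygen groups overlapped: the RPKM ratio of ENO1 to ENO3 was 95.7 and 112 in 1% oxygen, against 94.0 and 104 in normoxia. ENO3 made up 1.14, 0.892 and 1.84% of summed enolase RPKM in 1% oxygen, against 1.52, 0.973 and 2.67% in normoxia. So ENO3 rose in 1% oxygen at 48 hr and 6 days, as tested above, and its share of enolase RNA was nonetheless lower on average.

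**Figure D4:**
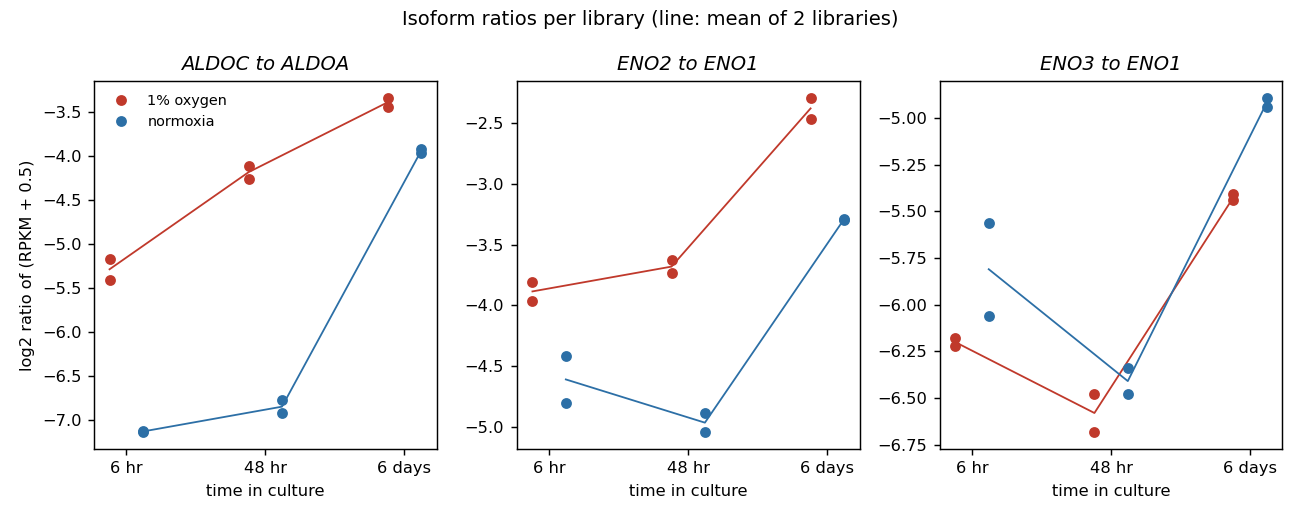
Log2 ratio of minor to main isoform (vertical axis, from RPKM + 0.5) in every library at 6 hr, 48 hr and 6 days, with 1% oxygen left of normoxia. Points are single libraries and lines join the means of 2 libraries. ALDOC to ALDOA and ENO2 to ENO1 are higher in 1% oxygen at every time, and ENO3 to ENO1 is lower on average by 0.36.

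The family totals were made up mostly of the main isoforms. Summed aldolase RPKM averaged 358 in 1% oxygen and 243 in normoxia at 6 hr, a ratio of 1.48. It averaged 571 in 1% oxygen and 281 in normoxia at 48 hr (ratio 2.03), and 463 in 1% oxygen and 149 in normoxia at 6 days (ratio 3.10). Summed enolase RPKM averaged 405 in 1% oxygen and 256 in normoxia at 6 hr, a ratio of 1.58. It averaged 681 in 1% oxygen and 310.2 in normoxia at 48 hr (ratio 2.19), and 625 in 1% oxygen and 186 in normoxia at 6 days (ratio 3.36). ENO4 was not analysed here.

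The remaining glycolytic enzymes were read from a list of 24, of which 16 were tested. In 1% oxygen 8 of the 16 were higher at 6 hr, 12 at 48 hr and 12 at 6 days, with medians of 0.57, 1.05 and 1.34 on the log2 scale, and 1 was lower, at 6 days. Of all tested genes 3.39, 9.24 and 23.9% were called higher at these times, and 18.3% lower at 6 days. That one was GPI, the isomerase between the hexokinase and phosphofructokinase steps (-0.30, SE 0.10, limma adjusted p = 0.0360). At 6 days 3 of the 16 were lower under quantile normalization, under trimmed-mean centring and without library 1 or library 2, and none was lower without any 1 of libraries 7, 8, 9, 10, 11 and 12. At 6 hr the count of 8 fell to 3 without library 3 and was 5 when only the 4 libraries of that time were fitted.

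Of the enzymes on that list that reached a group mean of 20 RPKM, TPI1 and GAPDH, at the steps after aldolase, were also higher. TPI1, which interconverts the products of aldolase, had 324.7 ± 0.76 RPKM in 1% oxygen and 109.9 ± 1.62 RPKM in normoxia at 6 days (SD, n = 2 each), a log2 fold change of 1.56 (SE 0.12, limma adjusted p = 2.81e-06). GAPDH had 2242 ± 45.6 RPKM in 1% oxygen and 881 ± 108 RPKM in normoxia at 6 days (SD, n = 2 each), a log2 fold change of 1.35 (SE 0.19, adjusted p = 0.000263). Either side of enolase, PGAM1 differed by 1.18 (SE 0.14, limma adjusted p = 6.63e-05) and PKM2, the pyruvate kinase gene PKM under its older name, by 1.34 (SE 0.11, adjusted p = 7.04e-06) at 6 days. PGK1, which makes the first ATP of the pathway, differed by 1.99 (SE 0.12, adjusted p = 5.45e-07), and LDHA, which reduces pyruvate to lactate, by 1.84 (SE 0.14, adjusted p = 2.81e-06).

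Upstream, HK2, an inducible hexokinase, differed by 2.47 (SE 0.10, limma adjusted p = 4.37e-08) and the phosphofructokinases PFKP and PFKL by 1.88 (SE 0.09, adjusted p = 1.28e-07) and 1.35 (SE 0.12, adjusted p = 1.29e-05) at 6 days. PFKM (-0.20, adjusted p = 0.0948) and LDHB (-0.31, adjusted p = 0.0652) did not pass at 6 days, nor at the earlier times. At 48 hr ALDOC (3.62) stood above every other enzyme plotted, followed by ENO2 (2.35) and PFKP (2.22), by the size of their estimates; the differences between genes were not tested. In normoxia at 6 days against 48 hr, 9 of the 16 were lower and 1 was higher, where 32.4% of all tested genes were called lower and 27% higher. Among them PGAM1 (-1.13, adjusted p = 3.89e-05), PKM2 (-1.09, adjusted p = 1.37e-05) and LDHA (-1.02, adjusted p = 8.72e-05) lay close to ALDOA (-0.99) and ENO1 (-0.85). PGAM4 and PGK2, close copies of PGAM1 and PGK1, are also rows of the table, and how reads were split between such copies is not given in the sources used here.

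**Figure D5:**
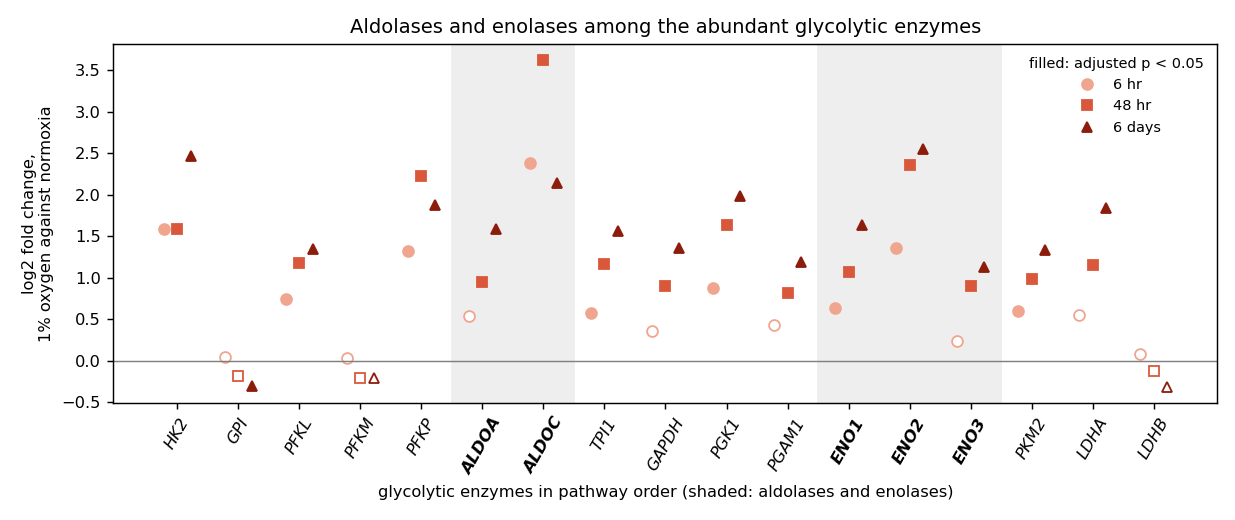
Log2 fold change in 1% oxygen against normoxia (vertical axis) at 6 hr, 48 hr and 6 days for the 5 isoforms (shaded) and the 12 other glycolytic enzymes with a group mean of at least 20 RPKM, in pathway order. Points are limma estimates, filled where adjusted p was under 0.05. ALDOC at 48 hr (3.62) is the highest point. GPI, PFKM and LDHB are below 0 at 48 hr and 6 days, and of these only GPI at 6 days (-0.30) was called lower.

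Across the 12 libraries the isoforms fell into a main and a minor pattern. On log2(RPKM + 0.5), Pearson's r was 0.9885 between ALDOA and ENO1, 0.9559 between ALDOC and ENO2 and 0.9406 between ENO2 and ENO3, but 0.5535 between ALDOA and ALDOC and 0.7432 between ENO1 and ENO2. The libraries share oxygen, time and depth, so these values describe likeness of pattern and carry no test. Among all tested genes, the 5 most like ALDOA were ENO1, LDHA (0.9874), KDM2A (0.9851), ADPRHL2 (0.9807) and ALDH18A1 (0.9805). Those most like ENO1 were ALDOA, ALDH18A1 (0.9859), GYS1 (0.9823), KDM2A (0.9817) and ZNF511 (0.9817). KDM2A is a histone demethylase, ALDH18A1 acts in proline synthesis and GYS1 is a glycogen synthase.

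The genes most like ALDOC were PDK1 (0.9837), which inhibits pyruvate dehydrogenase, MPI (0.9830), which links mannose to fructose phosphate, WDR54 (0.9814), OBSL1 (0.9809) and BNIP3L (0.9800), a mitophagy receptor. Those most like ENO2 were C2orf72 (0.9944), the transcription factor gene FOXD1 (0.9942), NRN1 (0.9939), KIAA1244 (0.9925) and PLEKHA2 (0.9917). Those most like ENO3 were HLA-B (0.9848), GLG1 (0.9836), SH3PXD2A (0.9824), HLA-G (0.9792) and GPRC5C (0.9756). HLA-B and HLA-G encode class I antigen-presenting proteins, belong to a family of near-identical genes and are uncertain for that reason.

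As ENO2, ALDOC and ENO3 are best known from other tissues, markers of other tissues were read in the same libraries. Of 10 neuronal and neuroendocrine markers 3 were tested, and the summed level of the list was 8.51 to 9.97 RPKM in 1% oxygen and 6.68 to 8.16 RPKM in normoxia at 6 hr, 11.2 to 12.3 RPKM in 1% oxygen and 7.41 to 8.41 RPKM in normoxia at 48 hr, and 9.02 to 10.1 RPKM in 1% oxygen and 6.68 to 7.86 RPKM in normoxia at 6 days. SYP was higher in 1% oxygen at 48 hr (0.62, limma adjusted p = 0.00558), and at 6 days TUBB3 was higher (0.72, adjusted p = 0.0161) and MAP2 lower (-0.48, adjusted p = 0.00500). NEFL, NEFM, SNAP25 and STMN2 were at 0.0924 RPKM or less in every library, CHGB reached 0.233 RPKM, CHGA 0.370 RPKM and SYN1 0.493 RPKM. SYP reached 1.33 RPKM and MAP2 2.23 RPKM, while TUBB3, the most abundant of the list, ran from 2.86 to 9.27 RPKM. None of 5 astrocyte and none of 5 liver markers was tested, and their sums stayed at or below 0.633 and 0.499 RPKM. Of 10 striated muscle markers 3 were tested, with sums of 30.6 to 42.4 RPKM in 1% oxygen and 25.0 to 31.7 RPKM in normoxia, nearly all of it TNNT1. TNNT1 was higher in 1% oxygen at 48 hr (0.55, adjusted p = 0.0256) and MB at 6 days (1.35, adjusted p = 3.89e-05). The part of these genes in the isoform results was not tested.

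EPCAM (33.2 to 42.2 RPKM) and KRT18 (23.7 to 38.2 RPKM) matched the epithelial label, but PAX8, CDH1, WT1, MUC16, KRT19 and ESR1 were at or below 0.246 RPKM in every library, and KRT8 at or below 1.96 RPKM. In bulk RNA, more cells with a transcript and more of it per cell cannot be told apart. Low precursor miRNA values implied 25.15 to 51.85 M reads per library, taken as the smallest totals that fit. The 2 libraries of a group correlated at 0.9892 to 0.9951 over tested genes. Normoxia at 6 hr was the least alike pair, with a median difference of 0.204 on the log2 scale, against 0.0886 to 0.126 in the other groups. The ALDOA gene overlaps a readthrough gene and has 2 pseudogenes by name in RefSeq, ENO1 has 4 and overlaps a miRNA, and ENO2 overlaps a long non-coding RNA. None of these is a row of the table, so reads from them, if counted, were counted elsewhere or with the isoform.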

How the data were processed

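The authors deposited RPKM, for genes by symbol and for miRNA precursors, from 12 libraries in 6 groups of 2. Per the labels' protocols, RNA was isolated with miRVANA, depleted with Ribominus and sequenced with 75-base forward reads; the RNA integrity limit there reads as below 8, which may be a slip, so RNA quality is not known. Partek 6.6 and build hg19 appear in the submitters' processing notes; the aligner, the transcript models, the use of strand and the RPKM denominator are each not given in the sources used here. RPKM is a share of each library's RNA, so one abundant gene can move the others.

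Genes with at least 1 RPKM in at least 2 libraries were tested (11933 of 22446). Tests used log2(RPKM + 0.5) in limma 3.58.1 (R 4.3.3), with a mean for each of the 6 groups and an intensity trend (6 residual and 5.08 prior degrees of freedom), two-sided, Benjamini-Hochberg adjusted within each comparison, threshold 0.05; the procedure was tested on simulated data. Precursor RPKM served only to infer depth, from 347 of 939 precursors with a known length. The smallest read total that put low values near whole reads was taken, and multiples of it would fit too. Of 73 to 102 values of up to 20 reads in a library, 96.7 to 100% lay within 0.05 of whole reads. That share was also used to choose the total, so it is not a separate check. No count model was run, as gene values hold no counts.

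Genes named are the 5 isoforms, the 5 tested genes most correlated with each, glycolytic enzymes with a group mean of at least 20 RPKM, and up to 3 genes a direction from the side pathways by size of change at 6 days. SYP, TUBB3, MAP2, TNNT1, MB and the other markers, and HK2 and PFKP as differences between times, were named after their values were seen. Isoforms and lists were chosen with earlier results of these data known. Promoters are from RefSeq (GRCh38.p14). Plots used Python 3.11.15 and matplotlib 3.10.9.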

Additional observations from a re-analysis of the deposited data

Results flagged for a closer look

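The results here are those in which the effect of 1% oxygen differed between times, by a contrast of the effects in limma with Benjamini-Hochberg adjustment over 11933 genes; groups of 2 libraries are too small to look for single outlying libraries. The 5 isoforms and the lists of other glycolytic, gluconeogenic and branch-pathway genes were searched, and tissue markers were not. Over all 11933 tested genes, 61 were called higher and 2 lower for the change from 6 hr to 48 hr. For the change from 48 hr to 6 days, 642 were called higher and 634 lower. The hypoxia effect on ALDOC was greater at 48 hr than at 6 hr by 1.24 (adjusted p = 0.0152) and smaller at 6 days than at 48 hr, with a difference of -1.47 (adjusted p = 0.00196). The effect on ENO2 was greater at 48 hr than at 6 hr by 1.00 (adjusted p = 0.00633). Among the other glycolytic enzymes, the effect on PFKP was greater at 48 hr than at 6 hr by 0.89 (adjusted p = 0.0136), and that on HK2 greater at 6 days than at 48 hr by 0.88 (adjusted p = 0.00527). The PFKP call was lost in 5 of 19 alternatives, without library 4, 5, 6, 7 or 8 (0.80 to 0.93, limma adjusted p up to 0.0921). In the side pathways the effect at 6 days was below that at 48 hr for PCK2 (-1.21, adjusted p = 0.00311), PHGDH (-0.69, adjusted p = 0.00767) and TALDO1 (-0.52, adjusted p = 0.0305). The TALDO1 call was lost in 8 of 19 alternatives, without any 1 of libraries 5 to 12 (-0.60 to -0.45, limma adjusted p up to 0.122); those of HK2, PCK2 and PHGDH were kept in all 19.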

How the results depend on the processing

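Over 45 comparisons of single isoforms and 870 alternatives, direction and call stayed as reported in 822, the call was lost in 35 and gained in 13, and the direction was reversed in 0. Many of these alternatives could not reverse a direction. Other filters, no intensity trend, a fit of only 1 time, or leaving out a library outside the comparison keep the estimate unchanged. The 822 also include comparisons that were not called in the main fit. The calls lost most often were ENO1 at 6 hr and ALDOA at 48 hr against 6 hr in 1% oxygen. Most counts of called genes stayed within 1.5 times the reported one under other pseudocounts, filters and scalings. The exceptions were 278 genes against 428 at 6 hr when only the 4 libraries of that time were fitted, 417 against 697 for 48 hr against 6 hr in 1% oxygen with no filter, 31 against 11 for 48 hr against 6 hr in normoxia with a filter of 5 RPKM, 97 against 63 for the change of effect from 6 hr to 48 hr with trimmed-mean centring, and 2479 against 1276 for that from 48 hr to 6 days with quantile normalization. The causes were not tested.

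With each library left out in turn, 1% oxygen against normoxia gave 181 to 837 genes at 6 hr, 621 to 2067 at 48 hr and 3294 to 5799 at 6 days. The change of effect gave 11 to 110 genes from 6 hr to 48 hr and 366 to 2156 from 48 hr to 6 days. In 1% oxygen, 48 hr against 6 hr gave 80 to 1133 genes and 6 days against 48 hr gave 6094 to 8032. In normoxia, 48 hr against 6 hr gave 6 to 1311 genes, the lowest without library 2 and the highest without library 1, and 6 days against 48 hr gave 5824 to 7626. A lone library left in a group is assumed to vary like those of the other groups. The isoform ratios kept direction and call in all alternatives run: 1.65 to 1.73 for ALDOC to ALDOA, 0.91 to 1.04 for ENO2 to ENO1 and -0.44 to -0.27 for ENO3 to ENO1 with a library left out, the last with an adjusted p up to 0.0463. A filter of 5 RPKM moved the median of all genes by -0.114 for 6 days against 48 hr in 1% oxygen and by -0.122 in normoxia. No paired analysis was possible because the compared groups share no replicate numbers. Precision is limited by 2 libraries a group, with standard errors on the log2 scale of 0.09 to 0.15 for isoforms between 2 groups and 0.13 to 0.22 for differences of effects, and ALDOC in normoxia at 6 hr lay close to the filter of 1 RPKM.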

Other observations

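Side pathways that share intermediates with aldolase and enolase were read from lists of 7 gluconeogenic and 8 branch genes. Of the gluconeogenic genes 2 were tested. PCK2, the mitochondrial enzyme that makes phosphoenolpyruvate, the product of enolase, was higher in 1% oxygen at 48 hr by 0.76 (SE 0.12, limma adjusted p = 0.00175) and lower at 6 days, with a difference of -0.44 (SE 0.12, adjusted p = 0.0128). Its level at 6 days was 43.4 ± 2.05 RPKM in 1% oxygen and 59.2 ± 3.38 RPKM in normoxia, against 14.2 ± 1.45 RPKM in 1% oxygen and 8.17 ± 0.39 RPKM in normoxia at 48 hr (SD, n = 2 each). FBP1 and FBP2, which reverse the phosphofructokinase step, were at or below 0.0941 RPKM in every library.

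Of the 8 branch genes 7 were tested. In 1% oxygen 0 were higher at any time, where 3.39, 9.24 and 23.9% of all tested genes were called higher at the 3 times. At 6 hr 0 were lower, at 48 hr 1 and at 6 days 5, where 0.201, 2.89 and 18.3% of all tested genes were called lower. At 6 days the largest were TALDO1 (-0.67, SE 0.09, adjusted p = 0.000248) and TKT (-0.48, SE 0.12, adjusted p = 0.00755), the sugar-exchanging enzymes of the pentose phosphate pathway that give and take glyceraldehyde phosphate and fructose phosphate, and GPD1L (-0.45, SE 0.11, adjusted p = 0.00765), a glycerol phosphate dehydrogenase. At an unadjusted p under 0.05, limma gave 0 branch genes higher and 0 lower at 6 hr. At that level 1 was higher and 3 lower at 48 hr, and 1 was higher and 6 lower at 6 days. Of all 11933 tested genes, 2008, 3194 and 6014 were under it in either direction at the 3 times. The 5 isoforms were all higher at 6 days.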
